A study of Mus musculus with 8 samples.

Results

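Cytochromes P450 are haem enzymes that insert an oxygen atom into drugs, fatty acids, sterols, vitamin D or retinoids, and their mouse genes carry symbols that begin with Cyp and a family number. All rows of a kidney transcript table whose symbol begins in this way were taken, which gave 102 of 21705 gene rows, 6 of them labelled as pseudogenes. The RNA came from kidney cortex of mice of mixed background strain. The Sav1-null group (4 libraries) had the genotype Sav1-/- and received tamoxifen, and the wild-type group (4 libraries) had the genotype Sav1+/+ and received vehicle. Sav1 encodes salvador, a scaffold protein of the Hippo kinase pathway, and the comparison asked how the cortex transcriptome differs when Sav1 is lost. Genotype and treatment changed together, so their effects cannot be told apart. The labels give no Cre driver, age or sex. They also do not say that each library is a separate animal, and the p-values describe library-to-library spread, part of which may be technical.

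In kidney, P450 enzymes sit mostly in the proximal tubule, where microsomal members take electrons from cytochrome P450 reductase and mitochondrial members take them from ferredoxin. Members of families 1 to 3 handle foreign compounds and some steroids, and the Cyp2c and Cyp2j subfamilies also turn arachidonic acid into epoxides. Family 4 enzymes hydroxylate fatty acids at their far end. The proximal tubule also activates vitamin D with Cyp27b1 and inactivates it with Cyp24a1. In mice, several renal P450 genes are known to differ between the sexes, Cyp4a12a, Cyp4b1, Cyp2e1 and Cyp7b1 being higher in males and Cyp4a14 in females.

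The deposited values are normalized expression signals scaled so that the upper quartile of the non-zero genes is about 1000 in every library, and they are not divided by transcript length. The Sav1-null libraries held about 15700000 to 20900000 reads and the wild-type libraries 20500000 to 25000000, and 3 reads corresponded to values of 2.34 to 3.09. Sav1 itself averaged 898 ± 127 in the Sav1-null libraries and 1349.8 ± 345 in the wild-type libraries (SD, n = 4 each), and its groups overlapped. Its call as lower was lost with equal library totals and without wild-type replicate 1 or 2. The groups were also split by sex-chromosome transcripts. Xist, which coats and silences the inactive X chromosome, averaged 12229 ± 2922 in the Sav1-null libraries and 0.247 ± 0.494 in the wild-type libraries, and the Y-linked genes Kdm5d, Uty, Ddx3y and Eif2s3y had 0 reads in every Sav1-null library and a mean of at least 378 in the wild-type libraries. Of the proximal tubule markers, 26 of 30 fell and 0 rose (25.2% of all tested genes fell), whereas with equal totals 23 fell and 1 rose and with quantile normalization 17 fell and 1 rose. Their summed value ranged from 136564 to 400598 in the Sav1-null libraries and from 915042 to 1009020 in the wild-type libraries. All 15 injured tubule markers rose (43.9% of all tested genes rose). All 12 genes listed as male-biased in mouse kidney fell, with sums of 10289 to 41740 in the Sav1-null libraries and 923377 to 1144210 in the wild-type libraries. The part of sex-chromosome content, tubule markers and injury markers in the P450 values was not tested, and sex-chromosome content cannot be told apart from genotype and treatment. In pieces of tissue, fewer cells of a type and less RNA per cell cannot be told apart.

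P450 transcripts took a smaller share of the Sav1-null libraries. They held 0.439%, 0.393%, 0.499% and 0.279% of the summed value in the Sav1-null libraries, against 1.53%, 1.52%, 1.57% and 1.59% in the wild-type libraries. The groups did not overlap, and Sav1-null replicate 4, which also had the lowest proximal tubule sum, was the lowest. In the deposited unit, the P450 sum averaged 65068 ± 16416 in the Sav1-null libraries and 325772 ± 7845 in the wild-type libraries (SD, n = 4 each), a 5.01-fold difference. The summed proximal tubule markers were 3.44-fold lower over the same libraries. The composition differed as well. Cyp4b1, Cyp2e1 and Cyp2j5 together held 24.1% to 36.4% of the P450 sum in the Sav1-null libraries and 68.8% to 72.6% in the wild-type libraries. Cyp2j5 was the largest contributor in Sav1-null replicates 1 to 3 and Cyp4a14 in replicate 4, whereas Cyp4b1 led in every wild-type library.

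**Figure D1:**
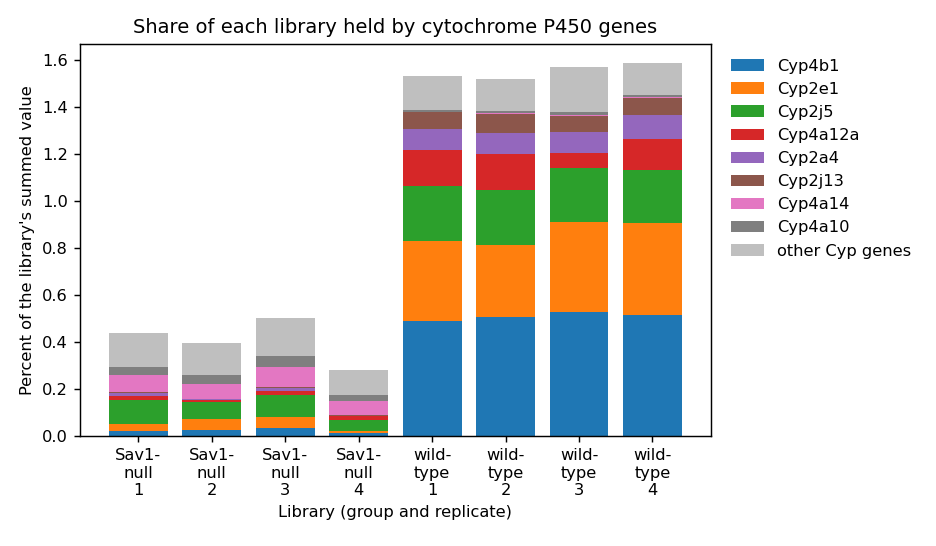
Share of each library's summed deposited value held by cytochrome P450 genes, in percent, for the 4 Sav1-null libraries (left) and the 4 wild-type libraries (right), with colours for the 8 genes named in the legend. The Sav1-null bars end between 0.279% and 0.499% and the wild-type bars between 1.52% and 1.59%, and Cyp4a14 takes 15.8% to 22.1% of the P450 sum in the Sav1-null bars and 0.0206% to 0.0986% in the wild-type bars.

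Of the 102 rows, 33 were listed at 0 in all 8 libraries, 42 were above 0 in all 8, and 44 had a mean of at least 10 and were tested. In what follows, group means are given ± SD over 4 libraries and log2 fold changes (Sav1-null over wild-type, of value + 1) ± SE. A gene was called when the adjusted p of limma, taken over all 13677 tested genes, was under 0.05. Among the 44 tested P450 genes, 15 rose and 20 fell in the Sav1-null group and 9 were not called. Over all tested genes, 43.9% were called higher and 25.2% lower (69.1% in either direction), and among the P450 genes these shares were 34.1% and 45.5%. The groups did not overlap for 32 of the 44 P450 genes, against 65.2% of all tested genes. The median log2 fold change (Sav1-null over wild-type) was -0.31 over the P450 genes and 0.23 over all tested genes. Scaling to equal library totals moved these medians to 0.07 and 0.62, with 17 P450 genes higher and 17 lower, and scaling by the median of ratios moved them to -0.54 and 0.00, with 13 higher and 21 lower. The share of calls that were higher was 63.5% over all genes, against 81.8% with equal totals and 49.7% with the median of ratios.

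**Figure D2:**
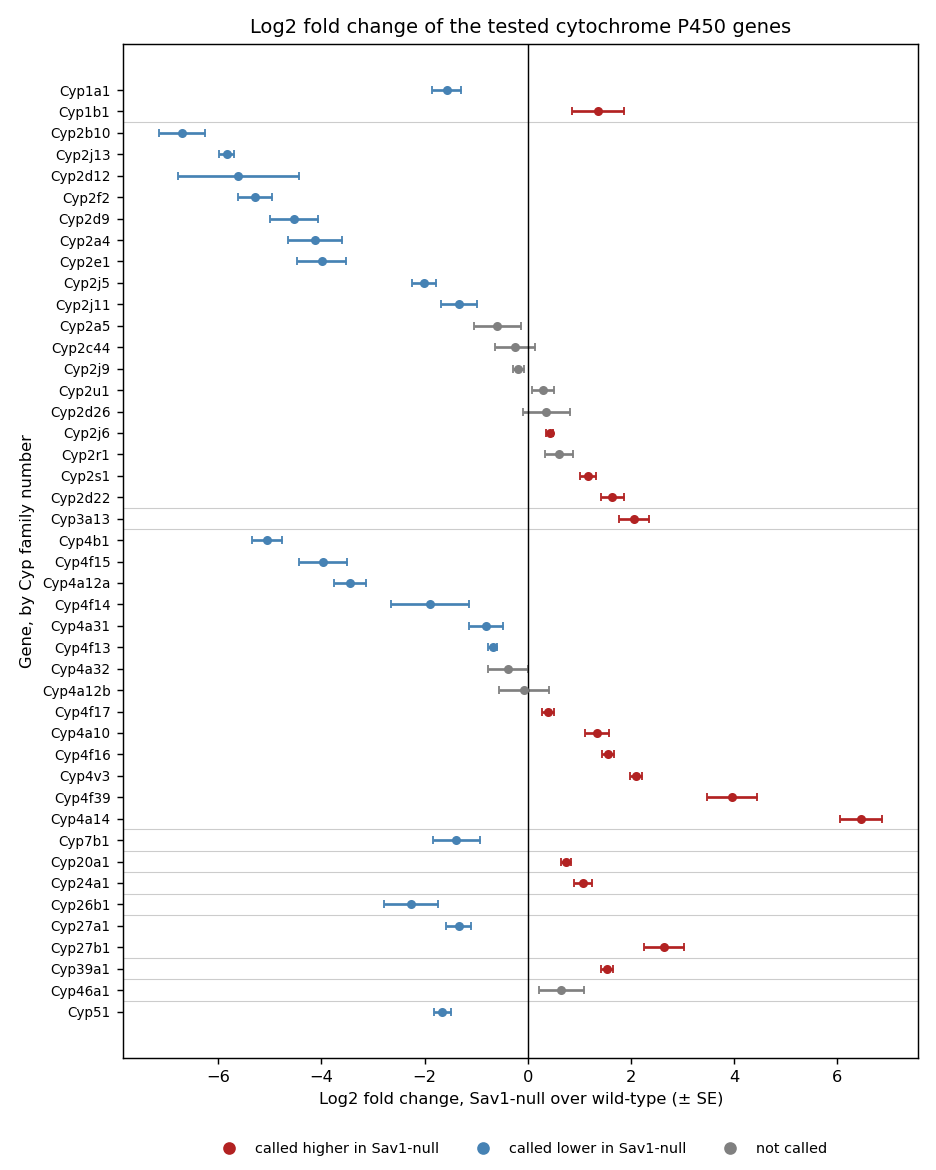
Log2 fold change (Sav1-null over wild-type, horizontal axis) of the 44 tested cytochrome P450 genes, ordered by family number from top to bottom, with bars for ± 1 SE from limma. Red points were called higher, blue points lower and grey points not called; families 2 and 4 hold the widest spread, from -6.71 for Cyp2b10 to 6.46 for Cyp4a14.

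Divided by transcript length, the 10 most abundant P450 transcripts in the wild-type libraries included 9 that fell and 1, Cyp2a5, that was not called. In the Sav1-null libraries the top 10 held 6 genes that fell, 3 that rose and 1 not called, and 7 genes stood in both top lists. Cyp4b1 ranked 5 among P450 genes in the Sav1-null libraries with 1842 per kilobase, and ranked 1 in the wild-type libraries with 56454 per kilobase. Cyp4a14 ranked 2 in the Sav1-null libraries with 4550 per kilobase, and ranked 27 in the wild-type libraries with 61.2 per kilobase. Cyp2j5, at 5426 per kilobase, ranked 1 in the Sav1-null libraries, and at 20763 per kilobase it ranked 3 in the wild-type libraries.

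The stretches directly before the transcription start (250 bases, RefSeq, GRCm38.p6) of 4 genes are shown because the results below turn on them: Cyp4b1 and Cyp2j13 had the lowest log2 fold changes among the 10 members most abundant in wild-type cortex, Cyp51 is the sterol synthesis member, and Cyp1a1 is the classic target of the aryl hydrocarbon receptor. Capitals mark matches, on either strand, to motifs searched by script. Cyp4b1 lies at chr4:115647722-115647971 (minus strand), Cyp2j13 at chr4:96077541-96077790 (minus strand), Cyp51 at chr5:4104698-4104947 (minus strand) and Cyp1a1 at chr9:57697363-57697612 (plus strand).
Cyp4b1: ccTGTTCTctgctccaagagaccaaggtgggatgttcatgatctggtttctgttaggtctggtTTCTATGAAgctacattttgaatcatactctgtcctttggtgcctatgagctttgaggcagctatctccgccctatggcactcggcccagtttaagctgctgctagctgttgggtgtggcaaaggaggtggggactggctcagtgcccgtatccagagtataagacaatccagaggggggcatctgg
Cyp2j13: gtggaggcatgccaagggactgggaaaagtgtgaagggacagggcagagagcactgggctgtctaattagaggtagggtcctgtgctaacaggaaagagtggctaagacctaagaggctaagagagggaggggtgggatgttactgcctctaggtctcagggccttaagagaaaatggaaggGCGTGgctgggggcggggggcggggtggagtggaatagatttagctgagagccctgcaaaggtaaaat
Cyp51: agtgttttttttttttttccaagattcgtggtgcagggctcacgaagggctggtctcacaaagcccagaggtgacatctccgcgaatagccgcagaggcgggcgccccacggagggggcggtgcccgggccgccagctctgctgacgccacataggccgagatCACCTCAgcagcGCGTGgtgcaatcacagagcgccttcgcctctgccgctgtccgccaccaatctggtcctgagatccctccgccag
Cyp1a1: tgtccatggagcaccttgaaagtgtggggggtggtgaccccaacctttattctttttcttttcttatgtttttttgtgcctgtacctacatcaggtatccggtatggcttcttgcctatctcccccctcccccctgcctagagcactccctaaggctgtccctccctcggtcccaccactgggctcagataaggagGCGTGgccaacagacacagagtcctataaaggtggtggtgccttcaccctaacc

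The Cyp51 stretch held CACCTCA, the core letters of the sterol regulatory element known from CYP51 promoters, 87 to 81 bases before the start. These letters occurred in 3.95% of 32851 promoter stretches of the same length, and among the 31 promoters of tested P450 genes in Cyp51 alone. The core letters GCGTG, bound by the aryl hydrocarbon receptor with its partner ARNT, stood 54 to 50 bases before the start of Cyp1a1, 75 to 71 bases before that of Cyp51 and 68 to 64 bases before that of Cyp2j13, and in 28.2% of all stretches. Upstream of Cyp4b1, the steroid receptor half-site AGAACA lay on the minus strand 248 to 243 bases before the start and the STAT palindrome TTCNNNGAA 187 to 179 bases before it, with matches in 16.1% and 7.02% of all stretches. Of the 31 genes, 9 rose, 16 fell and 6 were not called. GCGTG was present in 5 of 9 genes that rose (Cyp1b1, Cyp20a1, Cyp4f16, Cyp4f39 and Cyp4v3) and in 5 of 16 that fell (Cyp1a1, Cyp2b10, Cyp2j13, Cyp4f14 and Cyp51). AGGTCA, a half-site of nuclear receptors, was present in 0 of 9 that rose and 2 of 16 that fell (Cyp2f2 and Cyp2j5), and in 14.0% of all stretches. Matches overlapping between motifs were kept, and a match is only a run of letters.

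Families 1 to 3 held 63 rows, of which 26 were at 0 throughout and 21 were tested. In these families 5 tested genes rose (23.8%), 10 fell (47.6%) and 6 were not called. Among all tested genes 43.9% rose and 25.2% fell. The median log2 fold change was -0.59 in these families and 0.23 over all tested genes. With equal totals these medians were -0.21 and 0.62. Family 2 accounted for 18 of the tested genes, with 3 higher and 9 lower. The largest losses of signal were in Cyp2e1, Cyp2j5, Cyp2a4 and Cyp2j13.

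Cyp2e1 oxidizes ethanol, acetone and other small molecules. Its values were 4944, 7773, 8070.3 and 1468 in the Sav1-null libraries, against 71245, 63597, 79597 and 82372 in the wild-type libraries. The groups were far apart, and Sav1-null replicate 4 was the lowest library. Cyp2e1 was 15.98-fold lower (log2 fold change -4.0 ± 0.47 SE, limma adjusted p = 6.39e-05), and quantile normalization gave a log2 fold change of -3.25. Cyp2a4, a steroid hydroxylase, had 2358, 831, 2187 and 355 in the Sav1-null libraries, against 19036, 18362, 18890.0 and 21432 in the wild-type libraries. Each wild-type library lay far above the highest Sav1-null library, and within the Sav1-null group replicates 2 and 4 were low. The fold was 17.4 (log2 fold change -4.12 ± 0.53 SE, limma adjusted p = 9.86e-05). Cyp2a5, its close relative, known for coumarin hydroxylation, was not called and had 3377, 2277, 3133 and 866 in the Sav1-null libraries, against 2302, 2142, 5764 and 3767 in the wild-type libraries. These groups overlapped (log2 fold change -0.59 ± 0.46 SE, limma adjusted p = 0.273). Because 38.0% of the 50-base stretches of Cyp2a4 also occur in other P450 transcripts, most often Cyp2a5, the division of reads between the pair is uncertain. Their sum averaged 3846 ± 2096 in the Sav1-null libraries and 22924 ± 2348 in the wild-type libraries (SD, n = 4 each), 5.96-fold lower.

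The Cyp2j subfamily, arachidonic acid epoxygenases, had 5 tested members, with 1 higher and 3 lower (43.9% and 25.2% of all tested genes). Cyp2j5, the major kidney member, had 16441, 11725, 15454 and 7274 in the Sav1-null libraries, against 49389, 49197, 48200.0 and 47974 in the wild-type libraries. All wild-type libraries were within a narrow range and all Sav1-null libraries lay below it. Cyp2j5 was 4.01-fold lower (log2 fold change -2.0 ± 0.23 SE, limma adjusted p = 5.9e-05), although quantile normalization reduced the log2 fold change to -1.12. The values of Cyp2j13 were 323, 209, 332 and 245 in the Sav1-null libraries, against 15319.9, 17196, 14290.0 and 15848 in the wild-type libraries. The groups were separated by more than an order of magnitude, with little spread inside either (57.2-fold lower, log2 fold change -5.84 ± 0.15 SE, limma adjusted p = 2.59e-08). Cyp2j11 averaged 1913 ± 847 in the Sav1-null libraries and 4366 ± 412 in the wild-type libraries and fell (log2 fold change -1.33 ± 0.34 SE, limma adjusted p = 0.00635). Cyp2j6 rose by a small amount, with means of 1768 ± 127 in the Sav1-null libraries and 1316 ± 63.0 in the wild-type libraries (log2 fold change 0.42 ± 0.07 SE, limma adjusted p = 0.000741). Cyp2j9 was not called, at 221 ± 15.98 in the Sav1-null libraries and 251 ± 24.03 in the wild-type libraries (log2 fold change -0.18 ± 0.11 SE, limma adjusted p = 0.162), but was called lower with the median of ratios and with quantile normalization. In RefSeq order on chromosome 4 the coding genes run Cyp2j13, Cyp2j12, Cyp2j11, Cyp2j8, Cyp2j6, Cyp2j9 and Cyp2j5. The direct neighbours of Cyp2j6, the 1 member that rose, were Cyp2j8, which was not tested, and Cyp2j9, which was not called. Members that fell lie beyond these on both sides.

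Cyp2d9, a testosterone hydroxylase known from male mouse liver, and its close relative Cyp2d12 were nearly lost. Cyp2d9 had 107, 139, 179 and 44.3 in the Sav1-null libraries, against 1405, 2031, 4797 and 2612 in the wild-type libraries. No library of one group reached the other group, and wild-type replicate 3 was the highest (23.2-fold lower, log2 fold change -4.54 ± 0.46 SE, limma adjusted p = 2.65e-05). For Cyp2d12 the values were 38.3, 134, 124 and 0.984 in the Sav1-null libraries, against 1622, 1097, 2726 and 1552 in the wild-type libraries. The Sav1-null libraries spread widely, replicate 4 being close to 0, and without it the log2 fold change was -4.25 in place of -5.61 (log2 fold change -5.61 ± 1.17 SE, limma adjusted p = 0.00203). The genes share sequence, and their sum averaged 191 ± 119 in the Sav1-null libraries and 4460.4 ± 2106 in the wild-type libraries (SD, n = 4 each), 23.3-fold lower. Cyp2d22, the related gene at one end of the same cluster on chromosome 15, rose, with 586, 780.1, 885 and 427 in the Sav1-null libraries, against 189, 201, 263 and 182 in the wild-type libraries. Its lowest Sav1-null library was above its highest wild-type library (3.11-fold higher, log2 fold change 1.6 ± 0.22 SE, limma adjusted p = 0.000153). Cyp2d26 was not called, at 1360.3 ± 741 in the Sav1-null libraries and 947 ± 313 in the wild-type libraries (log2 fold change 0.36 ± 0.46 SE, limma adjusted p = 0.505), and was called higher when Sav1-null replicate 4 was left out, with a log2 fold change of 0.83 (limma adjusted p = 0.0262).

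A pair of members with low signal fell almost to 0. Cyp2b10, the classic phenobarbital-induced P450, had 0, 0, 0.79 and 0 in the Sav1-null libraries, against 71.6, 236, 152 and 79.4 in the wild-type libraries. This corresponded to 1 read in the Sav1-null group and 597 in the wild-type group, a wild-type to Sav1-null ratio of 635 with a 95% interval of 114 to 25120 for counting error (log2 fold change -6.71 ± 0.44 SE, limma adjusted p = 2.5e-06). Cyp2f2, which activates naphthalene in the airway, had 2.34, 2.93, 0.79 and 0.984 in the Sav1-null libraries, against 102, 83.8, 93.8 and 129.9 in the wild-type libraries. The Sav1-null values all lay at or under those of 3 reads (39.1-fold lower, log2 fold change -5.29 ± 0.33 SE, limma adjusted p = 2.03e-06), and with a pseudocount of 10 the log2 fold change was -3.25.

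The other called members of families 1 to 3 rose, apart from Cyp1a1. Cyp3a13, the one tested gene of the drug-metabolizing family 3, had 86.7, 155, 95.6 and 127 in the Sav1-null libraries, against 30.8, 29.3, 34.4 and 15.5 in the wild-type libraries. The groups did not overlap (4.17-fold higher, log2 fold change 2.06 ± 0.29 SE, limma adjusted p = 0.00018), and quantile normalization gave a log2 fold change of 1.10. Cyp2s1, an extrahepatic member, had 893, 1086, 927 and 1309 in the Sav1-null libraries, against 380.0, 462, 552 and 472 in the wild-type libraries. All Sav1-null values stood above all wild-type values (2.25-fold higher, log2 fold change 1.17 ± 0.15 SE, limma adjusted p = 9.72e-05). In family 1, Cyp1a1 and Cyp1b1, both known targets of the aryl hydrocarbon receptor, differed in direction. Cyp1a1 was scarce, with 17.2, 8.80, 10.3 and 14.8 in the Sav1-null libraries, against 29.0, 45.2, 46.9 and 36.1 in the wild-type libraries. Its highest Sav1-null library was below its lowest wild-type library (2.97-fold lower, log2 fold change -1.57 ± 0.28 SE, limma adjusted p = 0.000848), and quantile normalization gave -2.87. Cyp1b1 had 497, 447, 544 and 102 in the Sav1-null libraries, against 130.4, 194, 125 and 88.7 in the wild-type libraries. Sav1-null replicate 4 lay inside the wild-type range while the other 3 Sav1-null libraries lay above it (2.56-fold higher, log2 fold change 1.36 ± 0.50 SE, limma adjusted p = 0.0354). The Cyp1b1 call was lost in 9 of 17 alternatives, among them the median of ratios, quantile normalization and 6 of the 8 fits without 1 library. In the leave-out fits it held only without Sav1-null replicate 4, where the limma adjusted p was 5.85e-05, or without wild-type replicate 2, and the highest limma adjusted p was 0.0918. Ahr, which encodes the receptor, averaged 255 ± 11.5 in the Sav1-null libraries and 102 ± 26.1 in the wild-type libraries and rose (log2 fold change 1.35 ± 0.18 SE, limma adjusted p = 0.000119), whereas its target Tiparp averaged 575 ± 132 in the Sav1-null libraries and 1042 ± 32.9 in the wild-type libraries and fell (log2 fold change -0.89 ± 0.16 SE, limma adjusted p = 0.000748).

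**Figure D3:**
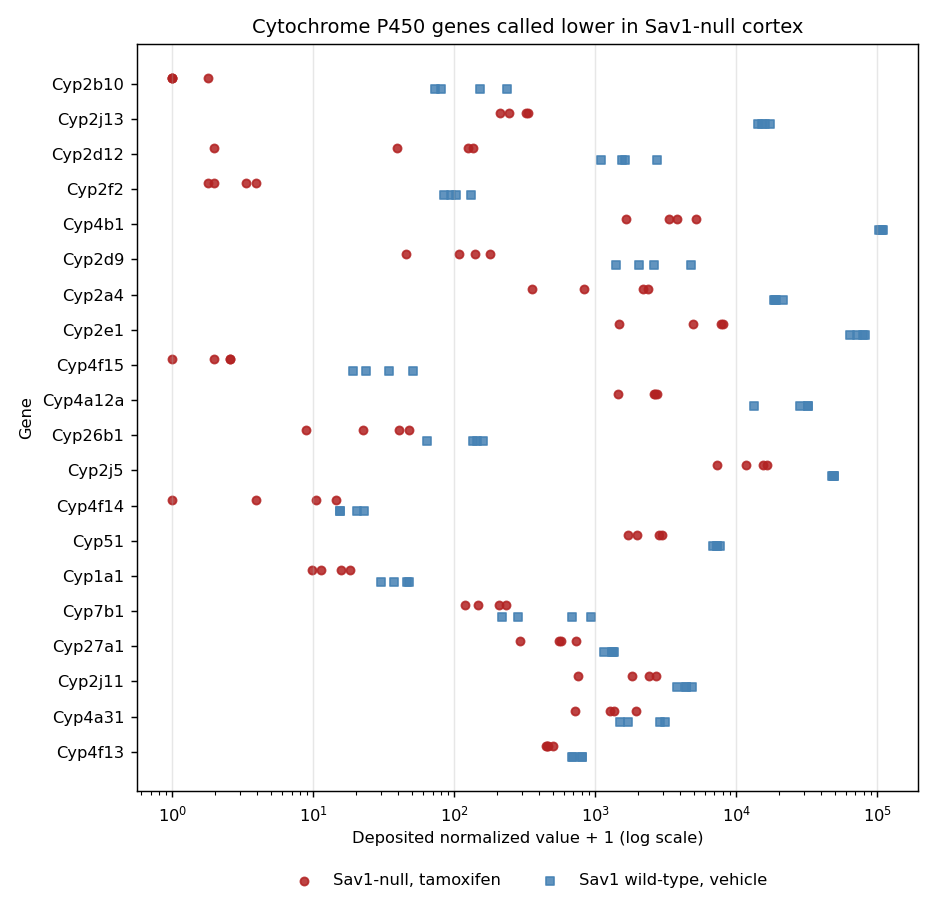
Deposited normalized value + 1 (log axis) of the 20 cytochrome P450 genes called lower, 1 row per gene from the lowest log2 fold change at the top, with circles for the 4 Sav1-null libraries and squares for the 4 wild-type libraries. The symbols of the groups overlap only for Cyp7b1 and Cyp4a31, and the Cyp4b1 squares at 102869 to 109642 lie far to the right of the circles at 1648 to 5182.

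The remaining tested members of family 2 were not called. Cyp2c44, an epoxygenase, averaged 412 ± 193 in the Sav1-null libraries and 448 ± 129.5 in the wild-type libraries (log2 fold change -0.24 ± 0.39 SE, limma adjusted p = 0.595). Cyp2u1, a fatty acid hydroxylase, averaged 51.2 ± 5.75 in the Sav1-null libraries and 42.2 ± 9.35 in the wild-type libraries (log2 fold change 0.29 ± 0.21 SE, limma adjusted p = 0.235), with a call as higher under equal totals and as lower under quantile normalization, where the log2 fold change was -0.75. Cyp2r1, which forms the main circulating form of vitamin D, averaged 40.1 ± 9.81 in the Sav1-null libraries and 25.9 ± 6.54 in the wild-type libraries (log2 fold change 0.61 ± 0.27 SE, limma adjusted p = 0.0674), and it was called higher in 4 alternatives, among them those without Sav1-null replicate 4 or wild-type replicate 1.

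Family 4 held 20 rows and 14 tested genes, of which 6 rose (42.9%), 6 fell (42.9%) and 2 were not called. Among all tested genes 43.9% rose and 25.2% fell, so the share that rose was near that of all genes. The median log2 fold change was -0.23, and with equal totals it was 0.15, with 6 genes higher and 4 lower. Directions differed between close relatives and between genomic neighbours.

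Cyp4b1, a fatty acid hydroxylase that also activates some toxins, had the highest wild-type level of all P450 genes. Its values were 3321, 3789, 5182 and 1648 in the Sav1-null libraries, against 102869, 105850.0, 109642 and 108881 in the wild-type libraries. The wild-type libraries lay close together and every Sav1-null library was far below them. The fold was 33.2 (log2 fold change -5.05 ± 0.29 SE, limma adjusted p = 1.46e-06), and under quantile normalization the log2 fold change was -4.40. Cyp4a12a, the androgen-inducible enzyme that hydroxylates arachidonic acid, had 2659, 1439.9, 2734 and 2619 in the Sav1-null libraries, against 32108, 32431, 13359 and 28110.3 in the wild-type libraries. The groups were apart, with wild-type replicate 3 and Sav1-null replicate 2 standing low within their groups (10.9-fold lower, log2 fold change -3.45 ± 0.31 SE, limma adjusted p = 1.29e-05). Cyp4a12b, its near-copy, was not called and had 1007, 433, 559 and 670.3 in the Sav1-null libraries, against 1043, 219, 852 and 1029.9 in the wild-type libraries. The groups overlapped, and the lowest library of all was a wild-type one (log2 fold change -0.07 ± 0.49 SE, limma adjusted p = 0.901). Since 48.9% of the 50-base stretches of Cyp4a12a occur in other P450 transcripts, most often Cyp4a12b, the sum is the safer value. It averaged 3030.3 ± 792 in the Sav1-null libraries and 27288 ± 8899 in the wild-type libraries (SD, n = 4 each), 9.01-fold lower.

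Cyp4a14 and Cyp4a10, fatty acid hydroxylases known as targets of PPAR alpha, rose. Cyp4a14 had 11532, 10117, 14248 and 9530.5 in the Sav1-null libraries, against 132, 65.3, 322 and 90.7 in the wild-type libraries. The lowest Sav1-null library was far above the highest wild-type library, and this was the highest log2 fold change of any tested P450 gene (88.1-fold higher, log2 fold change 6.46 ± 0.41 SE, limma adjusted p = 2.3e-06). For Cyp4a10 the values were 5497, 5964, 7442 and 3757 in the Sav1-null libraries, against 1992, 1943, 3212 and 1806 in the wild-type libraries. The groups came close, Sav1-null replicate 4 and wild-type replicate 3 being nearest to each other (2.53-fold higher, log2 fold change 1.34 ± 0.23 SE, limma adjusted p = 0.000682). Ppara, the gene of the receptor, averaged 3249.8 ± 1022 in the Sav1-null libraries and 4756 ± 272 in the wild-type libraries and was called lower (log2 fold change -0.61 ± 0.21 SE, limma adjusted p = 0.0269), a call that was lost with equal totals, with quantile normalization and on leaving out Sav1-null replicate 2 or wild-type replicate 2, 3 or 4 (limma adjusted p of 0.00521 to 0.0605 over the leave-out fits). Cyp4a31 averaged 1319 ± 499.9 in the Sav1-null libraries and 2293 ± 813 in the wild-type libraries, and its groups overlapped (log2 fold change -0.81 ± 0.33 SE, limma adjusted p = 0.0488). Its call as lower was lost in 10 of 17 alternatives, among them those without Sav1-null replicate 1, 2 or 4 or wild-type replicate 1 or 3 (limma adjusted p of 0.0182 to 0.130 over the leave-out fits). Cyp4a32, which shares 46.8% of its 50-base stretches with other members, was not called, at 39.3 ± 13.2 in the Sav1-null libraries and 55.7 ± 29.9 in the wild-type libraries (log2 fold change -0.38 ± 0.40 SE, limma adjusted p = 0.411), but was called lower with quantile normalization, where its log2 fold change was -1.41 (limma adjusted p = 0.00828).

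**Figure D4:**
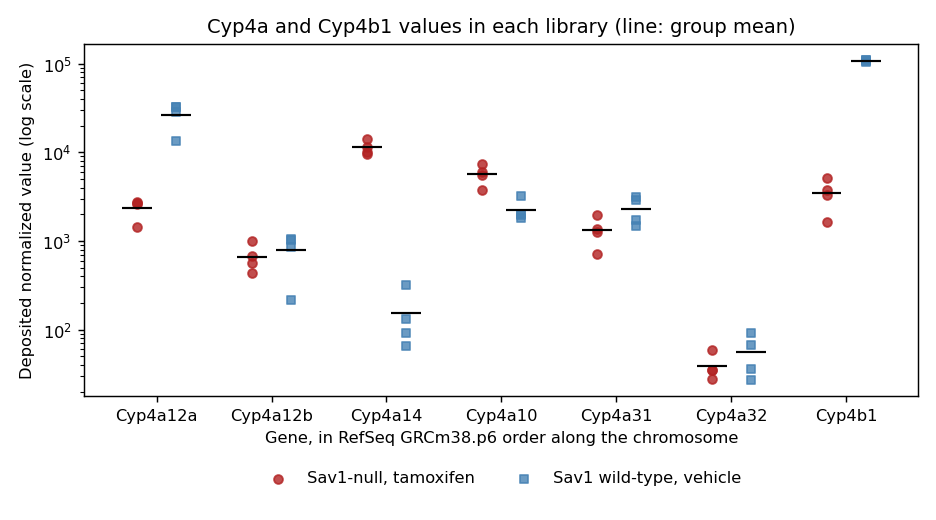
Deposited normalized values (log axis) of the 7 tested genes of the Cyp4a and Cyp4b cluster in RefSeq GRCm38.p6 order along chromosome 4, with circles for the 4 Sav1-null libraries, squares for the 4 wild-type libraries and lines for group means. The circles are higher at Cyp4a14 and Cyp4a10 and lower at Cyp4a12a and Cyp4b1, and the groups overlap at Cyp4a12b, Cyp4a31 and Cyp4a32.

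Along chromosome 4 the tested genes of this cluster stand in the order Cyp4a12a, Cyp4a12b, Cyp4a14, Cyp4a10, Cyp4a31, Cyp4a32 and Cyp4b1. Members that fell thus lie on both sides of the 2 that rose, with the uncalled Cyp4a12b between Cyp4a12a and Cyp4a14. The direct neighbours Cyp4a10 and Cyp4a31 were called in opposite directions, but the Cyp4a31 call was lost in 10 of 17 alternatives. Of their 50-base stretches, 30.5% for Cyp4a10 and 20.1% for Cyp4a31 occur in other P450 transcripts, most often Cyp4a32. On chromosome 17 the Cyp4f genes, whose products inactivate leukotrienes and hydroxylate long fatty acids, shared a direction with their neighbours. The genes Cyp4f39, Cyp4f17 and Cyp4f16, which follow each other, all rose, whereas Cyp4f15 fell and so did the neighbours Cyp4f14 and Cyp4f13.

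Cyp4f16 was the clearest of the Cyp4f genes that rose, with 367, 392.0, 380.0 and 461 in the Sav1-null libraries, against 146, 116, 146 and 133 in the wild-type libraries. Each group was tight and they did not overlap (2.94-fold higher, log2 fold change 1.56 ± 0.12 SE, limma adjusted p = 5.98e-06), while 26.5% of its 50-base stretches occur in other P450 transcripts, most often Cyp4f37. Cyp4f39, known in skin for fatty acids of barrier lipids, had 15.6, 12.7, 23.7 and 40.4 in the Sav1-null libraries, against 0.907, 0, 0 and 1.03 in the wild-type libraries. These values correspond to 104 reads in the Sav1-null group and 2 in the wild-type group, a ratio of 48.9 with a 95% interval of 13.2 to 409 for counting error (log2 fold change 3.97 ± 0.48 SE, limma adjusted p = 7.44e-05). The rise of Cyp4f17 was small, at 122 ± 4.15 in the Sav1-null libraries and 92.5 ± 7.66 in the wild-type libraries (log2 fold change 0.40 ± 0.12 SE, limma adjusted p = 0.0165), and with quantile normalization it turned to -0.38 (limma adjusted p = 0.0222). Cyp4f13 fell, at 466 ± 25.4 in the Sav1-null libraries and 747 ± 64.5 in the wild-type libraries (log2 fold change -0.68 ± 0.09 SE, limma adjusted p = 0.000109). Cyp4f15 was near 0 in the Sav1-null libraries, at 1.03 ± 0.741 in the Sav1-null libraries and 31.0 ± 14.1 in the wild-type libraries (log2 fold change -3.97 ± 0.46 SE, limma adjusted p = 5.42e-05). Cyp4f14, a leukotriene hydroxylase, averaged 6.43 ± 6.09 in the Sav1-null libraries and 17.6 ± 3.73 in the wild-type libraries (log2 fold change -1.89 ± 0.75 SE, limma adjusted p = 0.0473), a call lost in 9 of the 16 alternatives in which it was tested, among them those without any one wild-type library or without Sav1-null replicate 2 or 4. Without Sav1-null replicate 4, in which it was at 0, its log2 fold change was -1.13 (limma adjusted p = 0.0504). Cyp4v3, the mouse relative of a human fatty acid hydroxylase linked to retinal disease, had 604, 696, 609.9 and 636 in the Sav1-null libraries, against 127, 176, 142 and 149 in the wild-type libraries. The groups were tight and separate (4.29-fold higher, log2 fold change 2.10 ± 0.12 SE, limma adjusted p = 1.25e-06).

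**Figure D5:**
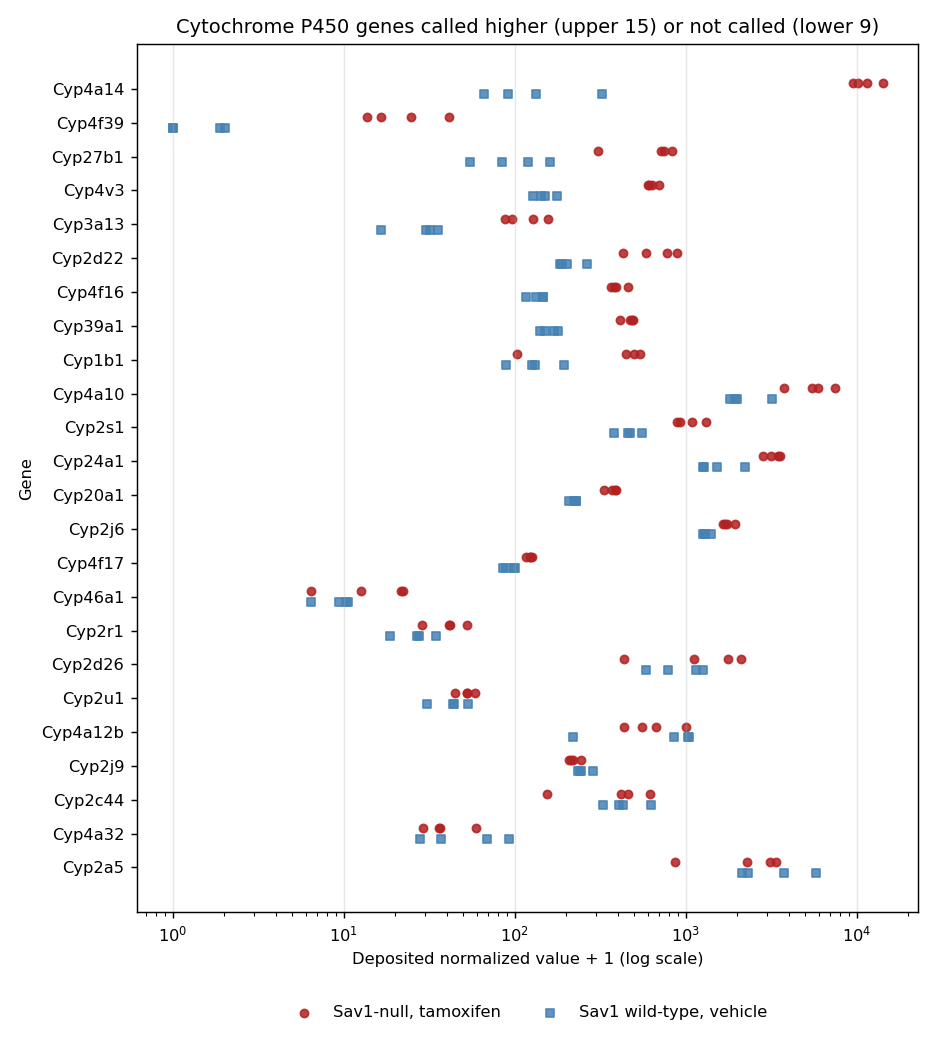
Deposited normalized value + 1 (log axis) of the 15 cytochrome P450 genes called higher (upper rows, from the highest log2 fold change) and of the 9 not called (lower rows), with circles for the 4 Sav1-null libraries and squares for the 4 wild-type libraries. Among the called genes the groups overlap only for Cyp1b1, where the lowest circle, Sav1-null replicate 4, is at 102 before 1 is added.

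Families 7, 8, 24, 27, 39, 46 and 51, which act on sterols, bile acids and vitamin D, held 9 rows and 7 tested genes. Of these, 3 rose (Cyp27b1, Cyp39a1 and Cyp24a1), 3 fell (Cyp51, Cyp7b1 and Cyp27a1) and Cyp46a1 was not called. The shares were 42.9% each, against 43.9% higher and 25.2% lower among all tested genes, so the share that rose was near that of all genes. With equal totals 3 rose and 2 fell.

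Cyp27b1 makes the active vitamin D hormone and had 743, 834, 717 and 308 in the Sav1-null libraries, against 159.6, 119, 83.3 and 53.6 in the wild-type libraries. All Sav1-null libraries lay above all wild-type libraries, Sav1-null replicate 4 being the lowest of its group (6.28-fold higher, log2 fold change 2.65 ± 0.39 SE, limma adjusted p = 0.000235). Cyp24a1, which degrades the hormone and its precursor, had 3138, 2821, 3581 and 3447 in the Sav1-null libraries, against 1521, 1277, 2234 and 1259.8 in the wild-type libraries. The groups were again apart (2.11-fold higher, log2 fold change 1.08 ± 0.18 SE, limma adjusted p = 0.000463). The transcripts of both the activating and the inactivating enzyme of vitamin D therefore rose, and protein and activity were not measured. Among 16 other genes of vitamin D handling, all tested, 4 rose and 10 fell, with a median log2 fold change of -0.81. Over all tested genes 43.9% rose and 25.2% fell. Gc, the vitamin D binding protein of plasma, averaged 4154 ± 813 in the Sav1-null libraries and 106 ± 47.8 in the wild-type libraries and rose (log2 fold change 5.37 ± 0.31 SE, limma adjusted p = 1.38e-06). Trpv5, a calcium channel of the distal nephron, also rose, at 3313 ± 1035 in the Sav1-null libraries and 445 ± 42.7 in the wild-type libraries (log2 fold change 2.85 ± 0.19 SE, limma adjusted p = 2.49e-06). Slc34a1, the phosphate transporter of the proximal tubule, fell, at 20806 ± 7554 in the Sav1-null libraries and 152254 ± 11755 in the wild-type libraries (log2 fold change -2.96 ± 0.29 SE, limma adjusted p = 1.91e-05). The Klotho gene Kl averaged 9315 ± 1001 in the Sav1-null libraries and 22505 ± 918 in the wild-type libraries (log2 fold change -1.28 ± 0.10 SE, limma adjusted p = 7.2e-06), and the parathyroid hormone receptor Pth1r averaged 7053 ± 636 in the Sav1-null libraries and 16366 ± 2161 in the wild-type libraries (log2 fold change -1.21 ± 0.12 SE, limma adjusted p = 1.95e-05), both lower. With quantile normalization the log2 fold changes were -1.98 for Slc34a1, -0.53 for Kl and -0.52 for Pth1r, all still called.

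Cyp51 removes a methyl group from lanosterol on the way to cholesterol, and it had 2817, 1978, 2953 and 1715 in the Sav1-null libraries, against 7328, 7648, 7271 and 6782 in the wild-type libraries. The groups did not overlap (3.15-fold lower, log2 fold change -1.65 ± 0.17 SE, limma adjusted p = 2.52e-05). The remaining enzymes and regulators of sterol synthesis did not share 1 direction. Of 20 tested, 8 rose and 8 fell, with a median log2 fold change of 0.02, whereas with equal totals 10 rose and 4 fell, and with the median of ratios 5 rose and 9 fell. Over all tested genes 43.9% rose and 25.2% fell, so the share that rose was near that of all genes. Mvd and Ebp fell with Cyp51, Mvd averaging 503 ± 94.99 in the Sav1-null libraries and 1696 ± 144 in the wild-type libraries (log2 fold change -1.77 ± 0.13 SE, limma adjusted p = 5.08e-06) and Ebp 1249.6 ± 194 in the Sav1-null libraries and 2828 ± 169 in the wild-type libraries (log2 fold change -1.19 ± 0.12 SE, limma adjusted p = 1.93e-05). Pmvk, a kinase of the mevalonate pathway, rose instead, at 456 ± 106 in the Sav1-null libraries and 203 ± 20.3 in the wild-type libraries (log2 fold change 1.14 ± 0.16 SE, limma adjusted p = 0.000168).

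Among enzymes that hydroxylate cholesterol or its derivatives, Cyp27a1, the mitochondrial sterol hydroxylase, had 550.5, 574, 726 and 289 in the Sav1-null libraries, against 1144, 1312, 1359.8 and 1331 in the wild-type libraries. Every wild-type library was above every Sav1-null library (2.53-fold lower, log2 fold change -1.34 ± 0.24 SE, limma adjusted p = 0.000847). Cyp39a1, an oxysterol hydroxylase, had 412, 489.7, 472 and 487 in the Sav1-null libraries, against 141, 170.1, 179 and 151 in the wild-type libraries. The groups were tight and apart (2.90-fold higher, log2 fold change 1.54 ± 0.11 SE, limma adjusted p = 4.4e-06). Cyp7b1, another oxysterol hydroxylase, had 119, 205, 145 and 232 in the Sav1-null libraries, against 679, 929, 283 and 215 in the wild-type libraries. The groups overlapped, since wild-type replicates 3 and 4 were far below replicates 1 and 2 (2.61-fold lower, log2 fold change -1.38 ± 0.45 SE, limma adjusted p = 0.0204), and the call was lost with equal totals, without wild-type replicate 1 and without Sav1-null replicate 1. Cyp46a1, the cholesterol hydroxylase known from brain, had 5.47, 11.7, 21.3 and 20.7 in the Sav1-null libraries, against 5.44, 8.38, 9.57 and 9.28 in the wild-type libraries. It was low throughout (log2 fold change 0.65 ± 0.44 SE, limma adjusted p = 0.212). Its log2 fold change was 1.03 without Sav1-null replicate 1, where it was called higher (limma adjusted p = 0.0337), and -0.77 with quantile normalization, where it was not called. Cyp7a1, which starts bile acid synthesis in liver, was at 0 in all 8 libraries, and Cyp8b1 had 8 reads in the Sav1-null group and 5 in the wild-type group.

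Cyp26b1, which clears retinoic acid, was the 1 tested member of family 26 and fell, with 39.8, 21.5, 46.6 and 7.87 in the Sav1-null libraries, against 63.5, 135, 159.8 and 144 in the wild-type libraries. The groups were apart, wild-type replicate 1 coming nearest to the Sav1-null libraries (4.79-fold lower, log2 fold change -2.26 ± 0.52 SE, limma adjusted p = 0.0037), and with quantile normalization the log2 fold change was -3.16. Cyp26a1, below the level for testing, had 29 reads in the Sav1-null group and 7 in the wild-type group. Of 13 tested genes that handle or sense retinoids, 8 rose and 1 fell, with a median log2 fold change of 1.23. Over all tested genes 43.9% rose and 25.2% fell. With equal totals 10 of the 13 rose and 1 fell, with the median of ratios 8 rose and 2 fell, and with quantile normalization 7 rose and 2 fell. Aldh1a1, which makes retinoic acid, averaged 1892 ± 707 in the Sav1-null libraries and 62.8 ± 23.0 in the wild-type libraries and rose (log2 fold change 4.88 ± 0.34 SE, limma adjusted p = 3.12e-06), and so did the receptor gene Rarg, at 505 ± 131 in the Sav1-null libraries and 125 ± 14.3 in the wild-type libraries (log2 fold change 1.98 ± 0.18 SE, limma adjusted p = 1.4e-05). Dhrs3, which converts retinal back to retinol, fell, at 1989.7 ± 279 in the Sav1-null libraries and 3406 ± 268 in the wild-type libraries (log2 fold change -0.78 ± 0.11 SE, limma adjusted p = 0.000201). Cyp20a1, an orphan P450 with no settled substrate, rose, with 386, 369.5, 330.2 and 389.8 in the Sav1-null libraries, against 228, 229, 207 and 221 in the wild-type libraries. The groups were narrow and did not overlap (1.66-fold higher, log2 fold change 0.73 ± 0.09 SE, limma adjusted p = 0.000108).

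The steroid hormone families 11, 17, 19 and 21 held 6 rows and no tested gene. Cyp11b1, Cyp11b2 and Cyp19a1 (aromatase) were at 0 in all 8 libraries. Cyp11a1, which cuts the cholesterol side chain, had 2 reads in each group, Cyp17a1 had 7 in the Sav1-null group and 2 in the wild-type group, and Cyp21a1 had 6 in the Sav1-null group and 1 in the wild-type group. Of 9 adrenal cortex markers, Nr5a1 was at 0 in every library and another 5 had at most 12 reads per group. The other 3 were Star with 316 reads in the Sav1-null group and 207 in the wild-type group, Akr1b7 with 74 in the Sav1-null group and 210 in the wild-type group, and Fdxr with 986 in the Sav1-null group and 1151 in the wild-type group. Some P450 genes typical of liver were also at or near 0: Cyp1a2 and Cyp2c29 were at 0 throughout and Cyp3a11 had 1 read per group. Of 14 hepatocyte markers, Tat, Tdo2, F2 and Ahsg had at most 2 reads per group, while the other 10 were tested. Among these, Ttr had 964 reads in the Sav1-null group and 57144 in the wild-type group, Fga had 15587 in the Sav1-null group and 2947 in the wild-type group, Serpina1a had 8055 in the Sav1-null group and 106 in the wild-type group, and Alb had 371 in the Sav1-null group and 766 in the wild-type group. A value of 0 here allows up to 3 reads per library. In all, 58 rows were not tested, 25 of them with at least 1 read. Among these, Cyp4f18, a leukotriene hydroxylase of leukocytes, had 42 reads in the Sav1-null group, mostly in replicate 4, and 2 in the wild-type group. Leukocyte markers rose in 10 of 12 tested cases (43.9% of all tested genes rose), with sums of 2905 to 3488 in the Sav1-null libraries and 735 to 1207 in the wild-type libraries. Sav1-null replicate 4 had the lowest of these sums in its group, although the listed markers S100a8 (104) and S100a9 (199) were highest there. The part of leukocytes in the Cyp4f18 value was not tested. Cyp2c69 had 6 reads in the Sav1-null group and 71 in the wild-type group.

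Within the Sav1-null group, replicates 3 and 4 stood at opposite ends for many of the members that fell. Of the 20 genes that fell, Sav1-null replicate 4 was the lowest of its group in 13 and Sav1-null replicate 3 the highest in 14. Sav1-null replicate 4 also had the lowest and replicate 3 the highest proximal tubule marker sum of their group, 136564 and 400598. The summed male-biased genes had the same extremes, 10289 in replicate 4 and 41740 in replicate 3. Replicate 4 also held the fewest reads, about 15700000. How often each library was the extreme over all tested genes was not counted, and which of these features goes with the P450 values was not tested. Of the 15 genes that rose, Sav1-null replicate 4 was the lowest in 7 and the highest in 4. In the wild-type group, among the 20 genes that fell, replicate 3 was the highest in 10, and the lowest library was replicate 1 in 7, replicate 2 in 5, replicate 3 in 2 and replicate 4 in 6.

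Of 10 tested redox partners of P450 enzymes, 4 fell and 0 rose with a median log2 fold change of -0.24, whereas with equal totals 4 fell and 4 rose. Over all tested genes 25.2% fell and 43.9% rose. Por, the reductase that feeds electrons to all microsomal P450 enzymes, averaged 3518 ± 451 in the Sav1-null libraries and 9922 ± 1797 in the wild-type libraries (2.80-fold lower, log2 fold change -1.49 ± 0.15 SE, limma adjusted p = 2.05e-05). Fdx1, the ferredoxin of the mitochondrial enzymes such as Cyp27b1 and Cyp24a1, averaged 576 ± 105 in the Sav1-null libraries and 1407 ± 65.8 in the wild-type libraries (2.47-fold lower, log2 fold change -1.31 ± 0.13 SE, limma adjusted p = 2.74e-05). Cyb5b and Cyb5r3, of the cytochrome b5 system, fell by smaller amounts, with log2 fold changes of -0.59 and -0.63, and with quantile normalization neither was called. In haem synthesis 9 of 11 tested genes fell and 0 rose with a median of -0.68, whereas with equal totals 6 fell and 1 rose. The largest change was in Cpox, at 579 ± 133 in the Sav1-null libraries and 2452 ± 233 in the wild-type libraries (log2 fold change -2.11 ± 0.16 SE, limma adjusted p = 4.8e-06), followed by Fech, the enzyme that inserts iron, at 1802 ± 294 in the Sav1-null libraries and 4332 ± 211 in the wild-type libraries (log2 fold change -1.28 ± 0.12 SE, limma adjusted p = 1.4e-05), and Uros, at 241 ± 27.6 in the Sav1-null libraries and 572 ± 22.5 in the wild-type libraries (log2 fold change -1.25 ± 0.10 SE, limma adjusted p = 7.92e-06). Alas1, the rate-limiting enzyme, averaged 4053 ± 1414 in the Sav1-null libraries and 6099.9 ± 1342 in the wild-type libraries, and its groups overlapped (log2 fold change -0.63 ± 0.25 SE, limma adjusted p = 0.0438). This call was lost in 10 of 17 alternatives, and in the leave-out fits it held only without Sav1-null replicate 3 or wild-type replicate 2. In haem breakdown 3 of 4 tested genes fell, whereas with equal totals 1 fell, and among them was Hmox1, at 474 ± 142 in the Sav1-null libraries and 921 ± 156 in the wild-type libraries (log2 fold change -0.99 ± 0.21 SE, limma adjusted p = 0.0023).

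Of 31 tested transcriptional regulators of P450 genes, 15 fell and 6 rose with a median log2 fold change of -0.34, whereas with equal totals 11 fell and 12 rose. Over all tested genes 25.2% fell and 43.9% rose. Nr1i2, the gene of the pregnane X receptor that drives Cyp3a genes, averaged 207 ± 45.3 in the Sav1-null libraries and 17.1 ± 8.58 in the wild-type libraries (12.8-fold higher, log2 fold change 3.68 ± 0.42 SE, limma adjusted p = 5.38e-05). Nfe2l2, the oxidative stress factor NRF2, averaged 4251 ± 268 in the Sav1-null libraries and 1879 ± 249.5 in the wild-type libraries (2.27-fold higher, log2 fold change 1.19 ± 0.10 SE, limma adjusted p = 1.06e-05). The partner receptor gene Rxra fell, at 1796 ± 214 in the Sav1-null libraries and 3823 ± 236 in the wild-type libraries (log2 fold change -1.10 ± 0.10 SE, limma adjusted p = 1.08e-05), and so did Hnf4a, a nuclear receptor gene of the proximal tubule, at 8876 ± 2149 in the Sav1-null libraries and 20086 ± 638 in the wild-type libraries (log2 fold change -1.21 ± 0.16 SE, limma adjusted p = 0.00015), with a log2 fold change of -0.48 under quantile normalization. Esr1, the estrogen receptor to which tamoxifen binds, averaged 32.0 ± 8.48 in the Sav1-null libraries and 219.7 ± 11.5 in the wild-type libraries (6.84-fold lower, log2 fold change -2.77 ± 0.19 SE, limma adjusted p = 3.52e-06). Prlr, the prolactin receptor gene and one of 7 genes listed as female-biased in mouse kidney, averaged 910.3 ± 696 in the Sav1-null libraries and 36.8 ± 10.1 in the wild-type libraries (log2 fold change 4.05 ± 0.76 SE, limma adjusted p = 0.00109), and without Sav1-null replicate 4 its log2 fold change was 4.92. Of that list 3 genes rose and 1 fell.

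Other enzymes of the arachidonate and epoxide pathway showed opposite changes of the epoxide hydrolases. Of 10 tested genes 6 rose and 2 fell, with a median log2 fold change of 0.99, where 43.9% of all tested genes rose and 25.2% fell. Ephx1, the microsomal epoxide hydrolase, averaged 2841 ± 359 in the Sav1-null libraries and 578 ± 50.4 in the wild-type libraries (4.89-fold higher, log2 fold change 2.29 ± 0.10 SE, limma adjusted p = 5.52e-07), while Ephx2, the soluble hydrolase that breaks down the products of Cyp2j and Cyp2c epoxygenases, averaged 3464 ± 573 in the Sav1-null libraries and 16678 ± 1159 in the wild-type libraries (4.86-fold lower, log2 fold change -2.28 ± 0.13 SE, limma adjusted p = 1.31e-06). The prostaglandin synthase genes Ptgds and Ptges rose, Ptgds at 807 ± 223 in the Sav1-null libraries and 54.5 ± 21.5 in the wild-type libraries (log2 fold change 3.91 ± 0.28 SE, limma adjusted p = 4.19e-06) and Ptges at 2465 ± 627 in the Sav1-null libraries and 622 ± 67.5 in the wild-type libraries (log2 fold change 1.96 ± 0.17 SE, limma adjusted p = 1.01e-05). Tbxas1 and Ptgis, P450 enzymes of prostanoid synthesis that carry no Cyp symbol, were not called, with log2 fold changes of 0.02 and 0.30.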

How the data were processed

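Poly(A) RNA of kidney cortex was measured in 8 libraries, grouped by the genotype and treatment in the labels. Per the labels' protocols, RNA was isolated on Qiagen RNeasy columns and libraries were made with a TruSeq stranded mRNA kit. RSEM, SAMtools and Picard 1.64 are named with the mouse build mm9, per the submitters' processing notes. The sources used here give neither the aligner nor the annotation nor the strand setting. The authors deposited 1 normalized signal value per gene and library. Its non-zero upper quartile is about 1000 in all libraries. About 93% of the values under 400 lay within 0.02 of a whole multiple of 1 step, from 92.7% to 93.3% by library, which was too few for a count model. The step gave the approximate read numbers. RSEM divides reads shared by similar genes, so values of near-identical members are uncertain, and overlapping or antisense genes may also share reads.

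From these values, log2(value + 1) was compared in R 4.3.3 with limma 3.58.1 (intensity trend in the moderated variances, 6 residual degrees of freedom) for 13677 genes with a mean of at least 10, with 8028 below it. Benjamini-Hochberg adjustment ran over every tested gene, and an adjusted p under 0.05 was a call. Fold changes are antilogs of this scale and understate changes of low genes. The procedure was first run on simulated data for 13677 genes, with 100 genes changed by 1 and 100 by 2 on the log2 scale. Of these, 69% and 94% were called, and 0.074% of the unchanged genes were. Few genes were changed there, whereas 69.1% were called in the data, so these rates may not hold for the data. Intervals and the limit of 3 reads cover counting error only.

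Transcript lengths (longest coding transcript) and shared 50-base stretches came from GENCODE M21 for 101 of the 102 rows. Promoter sequences and gene order came from RefSeq GRCm38.p6. Both differ in build from mm9 and were not used for the values.

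The members and 20 gene lists, from textbook knowledge, were chosen with earlier results of these data known, and no list was tested as a set. Values per library are given for called P450 genes with at least 50 in their higher group, namely the 12 highest and 12 lowest by log2 fold change, for the most abundant member of each family and for a fixed set of vitamin D, retinoid, sterol, Cyp1 and Cyp4a genes. The pathway genes named are, per list, at most 4 called genes of smallest p in the list's main direction and at most 2 in the other; some that this rule selects are not reported here. Cyp2a5, Cyp4f39, Ahr, Tiparp, Ppara, Hnf4a, Prlr, Alas1, genes given by means alone and untested genes were picked with their values in view. Msmo1 and Adgre1 were read under the older symbols Sc4mol and Emr1, and Cyb5a, Bco1, Hmgcs1 and Ly6g were listed but not analysed here.

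Alternatives were pseudocounts of 0.5 and 10, no filter, a mean of at least 50, the median of ratios, quantile normalization, equal library totals, no intensity trend, the replicate number as a block, and leaving out each library.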

Additional observations from a re-analysis of the deposited data

Results flagged for a closer look

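In 58 groups of 4 libraries, from P450 genes described per library, 3 held a library far from the other 3, and chance flags about 1 in 20 groups. Cyp2b10 was at 0.79 in Sav1-null replicate 3, which is 1 read, and at 0 in the other Sav1-null libraries. Cyp4a10 had a value of 3212 in wild-type replicate 3, against 1806 to 1992 in the other wild-type libraries. Cyp4a12a had a value of 1439.9 in Sav1-null replicate 2, against 2619 to 2734 in the other Sav1-null libraries. Which features of these libraries go with the values was not tested.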

How the results depend on the processing

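Of the 35 P450 calls, 30 held in each of the 17 alternatives in which the gene was tested, 5 were lost in at least 1 (Cyp1b1, Cyp4a31, Cyp4f14, Cyp4f17 and Cyp7b1), and 6 uncalled genes were called in at least 1. With equal totals, the median log2 fold change of the P450 genes was 0.065, all genes called lower numbered 1946 (3452 as reported) and pathway list genes called higher numbered 49 (32 as reported, beside 50 lower). With quantile normalization the P450 median was -0.75, Cyp2u1 (-0.75), Cyp4f17 (-0.38) and Cyb5b (0.050) changed sign, and Hmox2 did so with equal totals (0.12). Among uncalled P450 genes, Cyp46a1 (-0.77) and Cyp2r1 (-0.49) also changed sign with quantile normalization, Cyp2j9 (0.20) and Cyp4a12b (0.31) with equal totals, Cyp4a12b also without Sav1-null replicate 2 or wild-type replicate 1, 3 or 4, and Cyp2c44 with equal totals and without Sav1-null replicate 4 (0.17). Quantile normalization further gave -6.10 for Cyp2f2, -3.06 for Cyp4f14, -4.89 for Cyp4f15, 2.65 for Cyp4f39, -3.57 for Esr1, 2.77 for Nr1i2, 0.75 for Ahr and 3.45 for Prlr, with their directions kept. The cause of these changes was not tested. A pseudocount of 10 gave log2 fold changes of -3.68 for Cyp2b10, -1.84 for Cyp4f15 and 1.59 for Cyp4f39. Leaving out 1 library at a time gave 14 to 16 P450 genes higher and 17 to 21 lower, medians from -0.59 to -0.25, and 5471 to 6296 of all genes higher and 3148 to 3632 lower. In pathway lists these fits gave 31 to 36 genes higher and 46 to 51 lower. With the replicate number as a block, 15 P450 genes were higher and 20 lower, and over all genes 5927 were higher and 3391 lower. Deviations of same-numbered libraries correlated at 0.14, 0.08, -0.17 and 0.13. With wild-type replicate 1, Sav1-null replicate 3 gave 0.24 and replicate 4 gave -0.22. These values show no pairing by number but cannot exclude it. P450 genes under 3 reads per library cannot be told from 0 at this depth.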

Other observations

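Markers of other cell types that a piece of cortex can hold were also read, beside 43.9% of all tested genes that rose and 25.2% that fell. Of 12 collecting duct and loop markers, 7 rose and 1 fell, with sums of 66179 to 106145 in the Sav1-null libraries and 81799 to 85249 in the wild-type libraries. Elf5, a transcription factor of the collecting duct, averaged 118 ± 49.0 in the Sav1-null libraries and 6.49 ± 1.13 in the wild-type libraries (SD, n = 4 each). Pvalb, a marker of the early distal convoluted tubule, had 6 reads in the Sav1-null group and 2829 in the wild-type group. Of 11 stromal and endothelial markers 5 rose and 1 fell, and with the median of ratios 3 rose and 2 fell, and with quantile normalization 3 rose and 3 fell. The share that rose was thus near that of all tested genes. Col1a1, a fibrillar collagen gene, averaged 910.3 ± 308 in the Sav1-null libraries and 90.2 ± 54.8 in the wild-type libraries (SD, n = 4 each). Of 10 tested hepatocyte markers 4 rose and 2 fell, and with quantile normalization 4 rose and 4 fell. The fibrinogen gene Fga averaged 3375 ± 564 in the Sav1-null libraries and 668 ± 308 in the wild-type libraries, and Ttr, which carries thyroid hormone and retinol binding protein, averaged 209 ± 72.0 in the Sav1-null libraries and 13290.0 ± 1691 in the wild-type libraries (SD, n = 4 each). Of 3 tested adrenal cortex markers 1 rose (Star) and 1 fell (Akr1b7), neither call holding under every scaling, and both tested gonad markers rose, with Lhcgr, Fshr and Zp3 at 0 in every library.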
